A study of Homo sapiens with 27 samples.

Results

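The WNT signalling genes measured here are 49 genes, chosen by symbol from 44852 genes in the count and TPM tables and all found there. They comprise 19 WNT ligands, 10 frizzled receptors, 2 co-receptors, 3 R-spondins, 10 secreted antagonists, and 5 genes that are nuclear factors or transcriptional targets of the pathway. They were read in 27 bulk RNA-seq libraries of H1, a human embryonic stem cell line, cultured on LN523, LN323, or LN521 laminin matrices and collected at days 2, 22, and 32, with 3 libraries in each of the 9 groups. In the sample labels LN523 and LN521 were each used together with LN323, whereas the paper's methods combine LN523 and LN323 with LN521 and use LN521 alone, so the matrices are named by their leading isoform. The day 2 libraries are labelled as undifferentiated embryonic stem cells, and the titles call these days 0, 20, and 30. After day 2 every culture received neural induction medium with CKI-7, a casein kinase I inhibitor used to block WNT signalling, and SB431542, an inhibitor of activin and TGF-beta receptors. The cultures then received photoreceptor medium with B27 lacking vitamin A, N2, BDNF, CNTF, retinoic acid, and DAPT, an inhibitor of Notch processing. The day 2 libraries precede CKI-7. No culture that went without it was measured at day 22 or 32, and all libraries came from 1 cell line. The comparisons ask how WNT pathway genes changed as the stem cells were converted towards photoreceptor progenitors, and whether the laminin coating altered them.

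WNT ligands are secreted, lipid-modified proteins that bind a frizzled receptor together with LRP5 or LRP6, which stabilises beta-catenin and lets it act with LEF1 and TCF factors on genes such as AXIN2, NKD1, and SP5. Other ligands, WNT5A and WNT11 among them, act mainly through branches that do not need beta-catenin. Secreted frizzled-related proteins and WIF1 bind ligands, Dickkopf proteins bind LRP co-receptors, and R-spondins raise the amount of receptor at the cell surface. In the early eye, low WNT signalling favours anterior neural and neural retina fates, whereas WNT activity is associated with pigment epithelium, the ciliary margin, surface ectoderm, and the mesenchyme around the eye.

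Depth, as the sum of counts, was between 25620624 and 47340990 per library (median 39862487). Levels are given as CPM after TMM normalisation, and TPM values of the authors were used where levels of different genes are set side by side. Summed CPM of 6 pluripotency markers was 6256 to 10330 at day 2 and 56.5 to 411 at day 22, with the highest day 22 sum in replicate 1 on LN521. Summed CPM of 6 optic vesicle markers was 3.56 to 6.91 at day 2 and 922 to 1974 at day 22. Summed CPM of 6 photoreceptor markers was 71.6 to 171 at day 2 and 19.7 to 216 at day 32 (medians 86.9 and 55.9). Between these days the medians of CRX, PRDM1, and RBP3 went from 0.191, 0.1925, and 0 to 9.48, 8.92, and 10.6 CPM. OTX2 went from a median of 84.8 to 27.5 CPM and NRL from 1.34 to 1.53 CPM. RCVRN, a defining gene of mature photoreceptors, was at a median of 0.224 CPM at day 32. Other cell types were present at the later days: summed CPM of 6 mesenchyme markers was 137 to 379 at day 2 and 920 to 11250 at day 32, and that of 6 pigment epithelium markers was 832 to 2423 at day 22. Most of the pigment sum was PMEL, with medians of 140 CPM at day 2 and 966 CPM at day 22. At day 22 DCT had a median of 216 CPM and RPE65 one of 0.0469 CPM. The 6 mesenchyme markers were COL1A1, COL3A1, PDGFRA, TWIST1, LUM, and DCN, of which COL1A1 was already at a median of 217 CPM at day 2, while TWIST1, LUM, and DCN were at 0.111, 0.0526, and 0.164 CPM. In these bulk libraries, fewer cells of a type and less RNA per cell cannot be told apart. No source says that replicates were separate cultures, so the p-values measure the spread between these libraries, which may be technical. That spread was above counting noise, since the mean chi-square over genes between replicates of a group was 14.7 to 236.

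Between days 2 and 22 most WNT pathway genes changed. Most ligands rose, some from near absence to clear expression, such as WNT6 and WNT10A, while others, such as WNT2, stayed low. The receptor repertoire shifted from FZD7 towards FZD2 and FZD1. Among the antagonists SFRP2, DKK1, and DKK3 rose to high levels while SFRP1 and SFRP5 fell. Averaged over the matrices, 34 of the 49 genes rose and 6 fell past an adjusted p-value of 0.05 by edgeR's quasi-likelihood test with lane as a block. Among all genes tested, 18.2% rose and 16.9% fell. The median log2 fold change was 2.75 over the 49 genes and 0.00 over all genes tested. In 28 of the 49 genes every day 22 library was above every day 2 library, against 8.43% of all genes, and in 3 genes every day 22 library was below, against 7.43%. The test of whether the change differed between the matrices gave 0 of the 49 genes past the threshold, with 8 at an unadjusted p-value under 0.05, against 4.05% of all genes, and 0.0245% of all genes passed it. With DESeq2 that count was also 0.

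**Figure D1:**
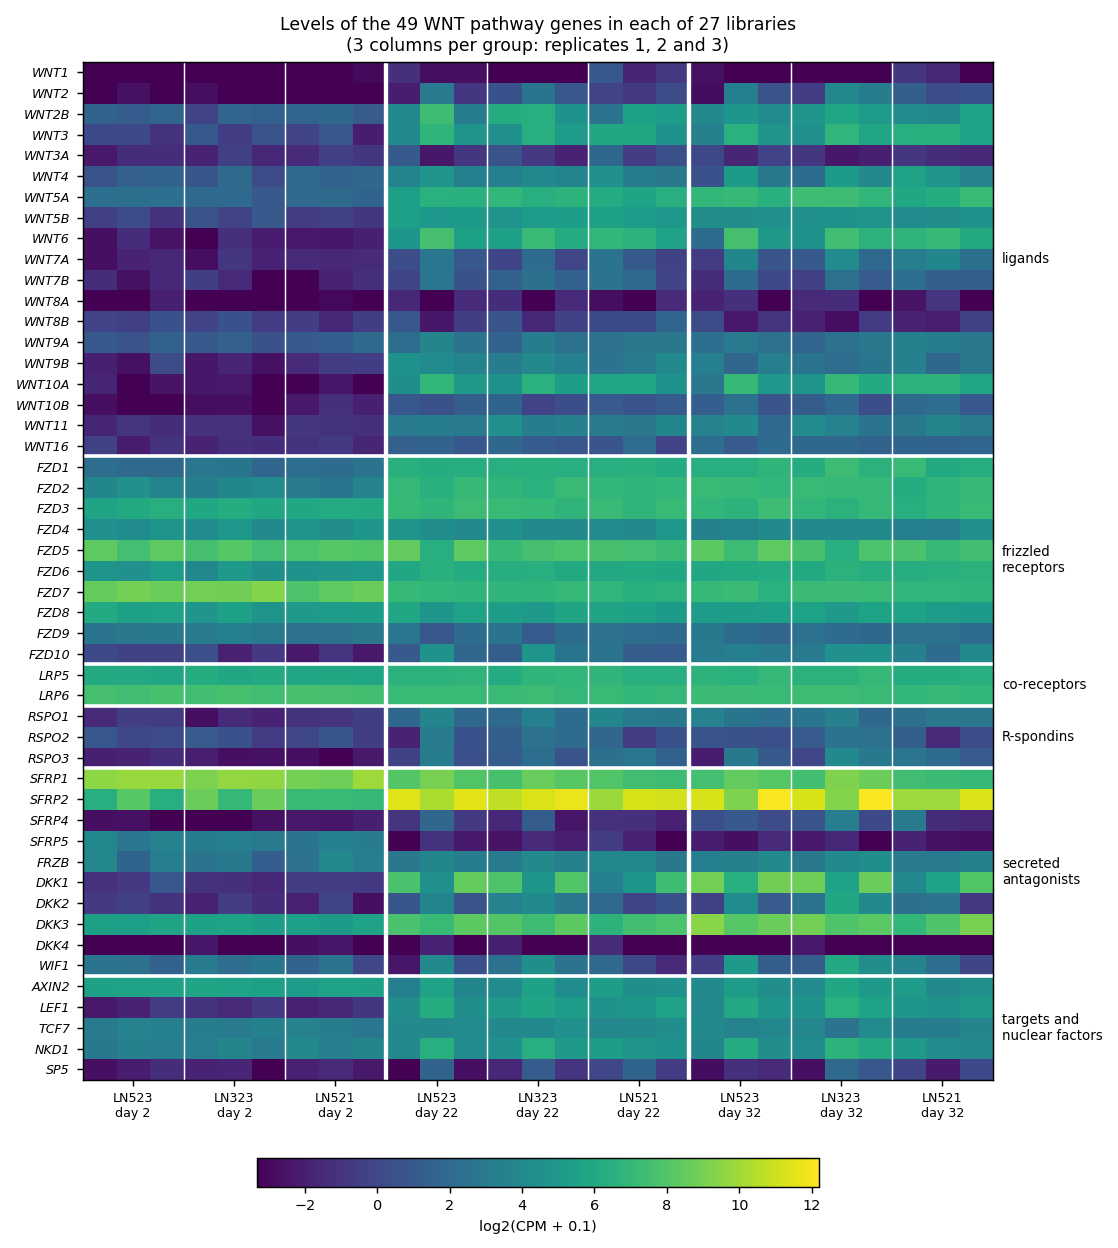
Level of each of the 49 genes (rows, grouped by role) in each of the 27 libraries (columns, 3 per group in the order of replicates 1, 2, and 3), as log2(CPM + 0.1). Most ligand rows are dark (low) at day 2 and lighter at days 22 and 32, while SFRP2 becomes the brightest row.

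Of the 19 ligands 16 rose and none fell, with a median log2 fold change of 4.04, and WNT10A and WNT6 had the largest log2 fold changes of the 49 genes. WNT10A, a beta-catenin-activating ligand of epidermis and skin appendages, ranged from 0 to 0.208 CPM at day 2 and from 20.6 to 126 CPM at day 22 (median 40.9). Its log2 fold change was 9.61 ± 0.42 (SE, adjusted p = 4.8e-26). WNT6, a ligand known from surface ectoderm and the margin of the eye, ranged from 0 to 0.328 CPM at day 2 and from 28.0 to 196 CPM at day 22 (median 76.2), a log2 fold change of 9.44 ± 0.42 (adjusted p = 8.7e-26). The day 2 and day 22 libraries of both genes did not overlap. On LN523, LN323, and LN521 taken separately the log2 fold changes of WNT10A were 8.76, 9.43, and 10.65. Behind these values WNT10A had 22 reads in the 9 day 2 libraries together and 19669 reads in the 9 day 22 libraries, so its ratio of pooled CPM was 893 with a counting interval of 590 to 1426. WNT2, a ligand of mesenchymal tissues, had 4 reads at day 2 and 848 at day 22, a ratio of 212 (82.4 to 779), and it reached only a median of 1.10 CPM. These intervals are exact binomial 95% intervals and cover counting error only. Since 68.8% of the non-zero counts were even, as would be seen if both reads of each pair were counted, the true intervals are wider.

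WNT3, which activates beta-catenin and is needed to form the primitive streak in the embryo, rose from 0.132 to 1.80 CPM at day 2 to between 16.7 and 112 CPM at day 22 (log2 fold change 5.53 ± 0.32, adjusted p = 4.1e-21). WNT9B, its neighbour in the genome and a ligand of kidney and face development, rose from a median of 0.219 to 12.9 CPM (log2 fold change 5.50 ± 0.35). The ligands of the branches independent of beta-catenin rose as well. WNT5A had a median of 3.90 CPM at day 2 and 89.8 CPM at day 22, and WNT5B, its paralog, went from 0.696 to 37.5 CPM. WNT11, a ligand of cell movements, went from a median of 0.355 to 9.16 CPM. WNT2B, a ligand made by pigment epithelium and the ciliary margin, ranged widely at day 22, from 5.85 to 166 CPM, but every library was above the day 2 maximum of 3.67 CPM. WNT4, WNT7A, WNT7B, WNT9A, WNT10B, and WNT16 rose with log2 fold changes between 1.55 and 5.12. WNT8A also passed, on 5 reads at day 2 and 51 at day 22. WNT3A, WNT8B, and WNT1 did not pass the test. WNT3A and WNT8B, ligands of the dorsal and caudal neural tube, had day 22 medians of 0.616 and 0.995 CPM. WNT1, a midbrain and dorsal neural tube ligand, had 1 read in the 9 day 2 libraries and 127 reads at day 22.

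Per unit length WNT6 was the largest part of the ligand pool at day 22, at a median of 42.7%. Summed TPM of the 19 ligands was 12.1 ± 2.79 at day 2 and 503 ± 243 at day 22 (mean ± SD, n = 9 libraries). At day 2 the highest ligands were WNT4 at 2.12 ± 1.00 TPM, WNT9A at 2.02 ± 0.79 TPM, and WNT5A at 1.86 ± 0.52 TPM, and these did not differ beyond their spread. At day 22 WNT6 led with 218 ± 140 TPM, and it made up 26.4% to 50.4% of the ligand TPM in every library. It was followed by WNT10A at 64.2 ± 44.8 TPM, WNT3 at 47.7 ± 32.7 TPM, and WNT5A at 46.4 ± 13.6 TPM, which did not differ beyond their spread.

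Some ligand genes lie next to each other. WNT6 and WNT10A are on the same strand of chromosome 2 with 6618 bases between them (GRCh38, GENCODE 44), WNT6 at chr2:218859805-218874233 and WNT10A at chr2:218880852-218899581, and both had the highest fold changes of the ligands. WNT3 at chr17:46762506-46833154 lies head to head with WNT9B, with 46 bases between their outermost GENCODE bounds. Their annotated starts in RefSeq lie much further apart. The 250 bases before these are chr17:46818693-46818942 for WNT3 and chr17:46851333-46851582 for WNT9B. WNT10B rose, and its neighbour on chromosome 12, WNT1, 6586 bases away, did not pass the test. WNT1 had 1 read at day 2 and 127 at day 22, of which 18 were on LN523 and 109 on LN521. Libraries at 0 left it without a usable SE, so the test cannot show that these neighbours differed. WNT9A and WNT3A are 59065 bases apart on chromosome 1, and WNT9A alone of that pair passed the test. The log2 fold change of WNT3A was 1.12 ± 0.50 (adjusted p = 0.080). The 250 bases before the annotated start are shown for WNT6 and WNT10A, the neighbours with the largest rises, and for SP5 and DKK1, the members with the most matches to TCF/LEF heptamers. The sequences are from RefSeq (GRCh38.p14), all on the plus strand, 5′ to 3′, and capitals mark matches to CTTTGNN with A or T at each N, on either strand, none of which overlapped. The windows were chr2:218859555-218859804 for WNT6, chr2:218880602-218880851 for WNT10A, chr2:170715087-170715336 for SP5, and chr10:52314031-52314280 for DKK1.
WNT6: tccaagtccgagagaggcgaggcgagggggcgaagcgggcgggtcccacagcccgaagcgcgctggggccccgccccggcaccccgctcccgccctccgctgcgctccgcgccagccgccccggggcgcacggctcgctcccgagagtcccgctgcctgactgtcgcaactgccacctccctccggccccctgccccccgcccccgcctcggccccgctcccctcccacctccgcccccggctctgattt
WNT10A: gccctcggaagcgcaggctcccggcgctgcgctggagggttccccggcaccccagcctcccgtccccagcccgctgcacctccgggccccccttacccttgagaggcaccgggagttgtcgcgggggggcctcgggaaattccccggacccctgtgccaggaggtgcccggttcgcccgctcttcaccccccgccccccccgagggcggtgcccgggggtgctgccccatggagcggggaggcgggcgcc
SP5: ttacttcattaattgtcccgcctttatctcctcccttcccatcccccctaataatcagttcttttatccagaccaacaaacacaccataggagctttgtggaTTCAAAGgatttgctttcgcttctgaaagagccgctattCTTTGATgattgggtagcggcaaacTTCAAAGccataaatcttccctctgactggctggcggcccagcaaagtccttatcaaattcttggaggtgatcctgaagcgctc
DKK1: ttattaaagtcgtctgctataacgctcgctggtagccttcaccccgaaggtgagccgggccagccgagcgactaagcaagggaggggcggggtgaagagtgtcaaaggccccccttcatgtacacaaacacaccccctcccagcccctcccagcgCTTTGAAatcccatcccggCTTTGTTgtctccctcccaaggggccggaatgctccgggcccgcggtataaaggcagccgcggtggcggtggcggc
SP5, a transcription factor gene and direct WNT target, held 3 matches, whose first bases were at positions -148, -109, and -84 from the start. DKK1, an LRP-binding antagonist and known WNT target, held 2, at -95 and -76. Neither WNT6 nor WNT10A held one, and their windows were 79.2% and 77.6% G and C, compared with 62.8% for DKK1 and 45.6% for SP5. Of the 33 members with a window in the table, 3 held a match, the other being TCF7, while 12.0% of 34943 windows of the same length did. A match of these letters is not a binding site, and the lack of one says nothing of the factor.

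**Figure D2:**
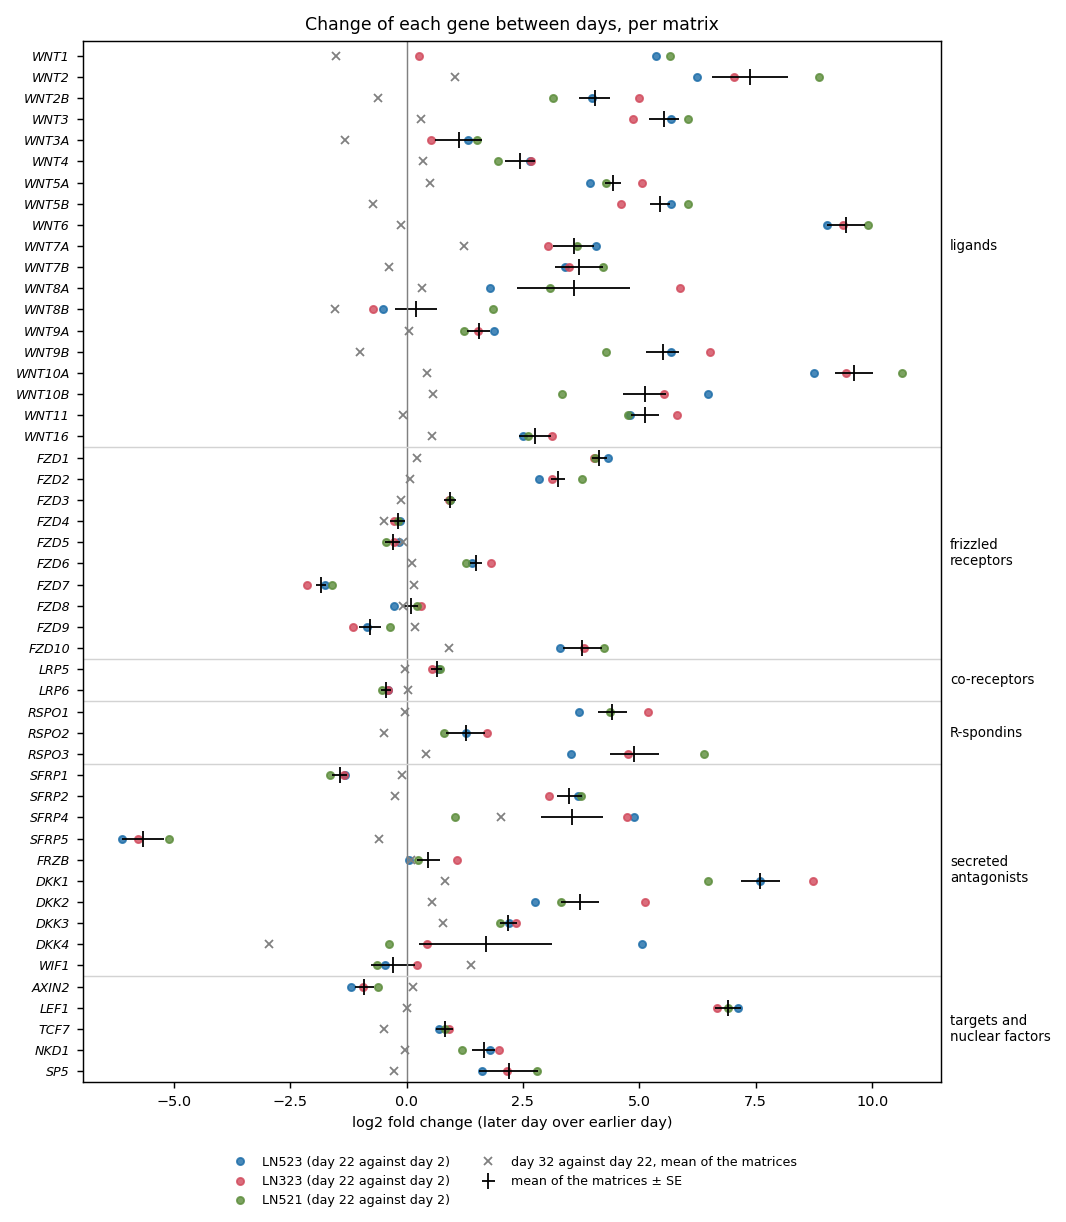
Log2 fold change of each gene from day 2 to day 22 on each matrix (coloured points), their mean with its SE (black), and the mean change from day 22 to day 32 (grey crosses). The mean of WNT1 is not drawn, because libraries at 0 leave it without a usable SE. Most ligand points lie to the right of 0, SFRP5, FZD7, and SFRP1 lie to the left, and most grey crosses lie near 0.

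Among the frizzled receptors 5 of 10 rose and 2 fell, and the receptor with the highest level changed. FZD7, the receptor typical of pluripotent stem cells, ranged from 231 to 636 CPM at day 2 (median 416) and from 92.0 to 137 CPM at day 22 (median 115). It fell by 1.84 ± 0.12 on the log2 scale (adjusted p = 2.9e-19), and its day 2 and day 22 libraries did not overlap. FZD1 rose from between 3.16 and 6.83 CPM to between 74.8 and 93.1 CPM, a log2 fold change of 4.14 ± 0.16 (adjusted p = 5.7e-28). The FZD1 libraries of day 22 were close to each other on the 3 matrices. FZD2 rose from between 6.45 and 22.7 CPM to between 91.8 and 142 CPM (log2 fold change 3.25 ± 0.15, adjusted p = 2.1e-25). FZD10 rose from a median of 0.486 to 3.32 CPM (log2 fold change 3.78 ± 0.42), with 2 libraries far above the rest at 24.7 and 25.6 CPM, which were replicate 2 on LN523 and on LN323. FZD3, which serves planar polarity and axon growth, and FZD6 rose by less, with log2 fold changes of 0.93 and 1.5. FZD9 fell, with a log2 fold change of -0.78. FZD5, a receptor of the neural retina, FZD8, and FZD4, the receptor of norrin in retinal vessels, did not pass the test, and their day 2 medians were 248, 41.3, and 23.0 CPM and their day 22 medians 200, 46.0, and 17.7 CPM.

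In TPM, FZD7 made up a median of 58.6% of all frizzled transcripts at day 2 and 17.4% at day 22, whereas FZD2 reached 32.4% at day 22. The mean level of FZD7 was 377 ± 66.9 TPM at day 2, ahead of FZD5 at 131 ± 33.5 TPM (SD, n = 9). At day 22 FZD2 led with 230 ± 28.0 TPM, and FZD5 at 126 ± 51.5 TPM and FZD7 at 124 ± 16.3 TPM did not differ beyond their spread. The sum over the 10 receptors moved little beside that of the ligands, from 632 ± 47.0 to 720 ± 81.6 TPM. Of the co-receptors, LRP5 rose from a median of 63.9 to 102 CPM (log2 fold change 0.64 ± 0.11, adjusted p = 5.2e-06). LRP6 fell by 0.44 ± 0.10 on the log2 scale (adjusted p = 0.00027), from between 175 and 207 CPM to between 124 and 158 CPM. Both co-receptors were thus expressed throughout.

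The 3 R-spondins, amplifiers of WNT signals through LGR receptors, all rose but stayed low. RSPO3 went from a median of 0.105 to 2.69 CPM (log2 fold change 4.89 ± 0.52, adjusted p = 2.2e-11), and RSPO1 from 0.390 to 7.5 CPM (4.42 ± 0.32, adjusted p = 2.7e-17). RSPO2 ranged from 0.547 to 2.07 CPM at day 2 and from 0.185 to 8.21 CPM at day 22, so its libraries overlapped. Its log2 fold change was 1.27 ± 0.41 (adjusted p = 0.011), and it did not pass when replicate 2 was left out (log2 fold change 0.76, adjusted p = 0.139).

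The secreted antagonists held both the most abundant transcript of the 49 genes and the deepest fall: 5 of 10 rose and 2 fell. SFRP2, a WNT-binding protein of the early neural retina, ranged from 87.9 to 413 CPM at day 2 (median 143) and from 932 to 3440 CPM at day 22 (median 2497). Its log2 fold change was 3.50 ± 0.27 (adjusted p = 2.1e-16). At day 22 SFRP2 stood at 4513 ± 1572 TPM, 78.9% to 93.2% of the antagonist total in each library, compared with DKK1 next at 274 ± 239 TPM. DKK1 ranged from 0.243 to 1.77 CPM at day 2 and from 10.4 to 374 CPM at day 22 (median 166), with a log2 fold change of 7.60 ± 0.43 (adjusted p = 1.8e-21). Every day 22 library was above every day 2 library for DKK1, yet the day 22 libraries differed widely among themselves. On LN523, LN323, and LN521 its log2 fold changes were 7.59, 8.72, and 6.48. DKK3, a Dickkopf family member that is not a typical LRP antagonist, rose from a median of 44.5 to 213 CPM (log2 fold change 2.19 ± 0.17), DKK2 from 0.386 to 3.81 CPM (3.73 ± 0.41), and SFRP4 from 0.0608 to 0.363 CPM (3.55 ± 0.67).

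SFRP5, another WNT-binding frizzled-related protein, went down furthest: it ranged from 6.12 to 14.8 CPM at day 2 and from 0 to 0.590 CPM at day 22. It fell by 5.66 ± 0.46 on the log2 scale (adjusted p = 2.4e-15), and its libraries did not overlap. SFRP1 had the highest mean of the antagonists in the stem cells, 534 ± 120 TPM, but its spread overlapped that of SFRP2 at 338 ± 186 TPM. SFRP1 went from a median of 796 to 257 CPM and fell by 1.44 ± 0.15 on the log2 scale (adjusted p = 1.9e-11). FRZB, WIF1, and DKK4 did not pass the test. FRZB had medians of 7.55 and 10.6 CPM at days 2 and 22, WIF1 had 5.61 and 3.77 CPM, and DKK4 was at 0 in 6 of 9 libraries on both days.

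The pathway's own targets did not move together. LEF1, a nuclear partner of beta-catenin that is itself a target, ranged from 0.104 to 0.540 CPM at day 2 and from 19.9 to 79 CPM at day 22 (median 32.1), a log2 fold change of 6.90 ± 0.29 (adjusted p = 7.3e-27). NKD1, a feedback inhibitor, rose from a median of 9.99 to 26.9 CPM (1.66 ± 0.25, adjusted p = 1.2e-07), and TCF7 from 9.63 to 16.0 CPM (0.81 ± 0.18). AXIN2, the feedback scaffold most widely read as a sign of beta-catenin activity, fell by 0.91 ± 0.20 on the log2 scale (adjusted p = 0.00021), but not past the threshold without replicate 3 (log2 fold change -0.70, adjusted p = 0.060). At day 2 AXIN2 ranged from 38.6 to 53.4 CPM, and at day 22 it was 10.4, 48.6, and 14.1 CPM on LN523, 18.0, 47.7, and 18.8 CPM on LN323, and 41.2, 21.4, and 22.9 CPM on LN521 in replicates 1, 2, and 3. Thus 3 of the 9 later libraries kept AXIN2 within the day 2 range. SP5 rose from a median of 0.167 to 0.549 CPM (2.19 ± 0.64, adjusted p = 0.0044), but the highest day 22 values, 3.02, 2.19, and 3.13 CPM, were the replicate 2 libraries of the 3 matrices. Without replicate 2 the log2 fold change of SP5 was 0.41 and did not pass (adjusted p = 1). In TPM the leading gene of these 5 changed from AXIN2 at day 2, 32.1 ± 3.30 TPM, to LEF1 at day 22, 29.3 ± 15.3 TPM, whose spread overlapped that of AXIN2 at 21.4 ± 12.1 TPM.

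Between days 22 and 32 little of this changed. The median log2 fold change was 0.02 over the 49 genes, 2 genes rose, and 1 fell, against 1.03% and 0.305% of all genes. SFRP4 rose from a median of 0.363 to 1.28 CPM (log2 fold change 2.02 ± 0.51, adjusted p = 0.025), but its day 32 values were uneven, with 9.86 CPM in replicate 2 on LN323, 8.12 CPM in replicate 1 on LN521, and 0.224 CPM at the lowest. DKK3 rose from a median of 213 to 302 CPM (0.79 ± 0.17, adjusted p = 0.0028), in 8 of 9 pairs of libraries with the same matrix and replicate number. WNT5B fell by 0.71 ± 0.17 on the log2 scale (adjusted p = 0.010). WNT5B ranged from 25.9 to 46.5 CPM at day 22 and from 18.6 to 26.5 CPM at day 32, and was lower in 9 of 9 pairs. No gene passed the test of a difference in this change between matrices: 0 of the 49 genes and 0% of all genes passed, with 0 of the 49 at an unadjusted p-value under 0.05, against 3.36% of all genes, and DESeq2 also gave 0. Of the 3 calls, SFRP4 did not pass without replicate 1 or replicate 3 and WNT5B did not pass without replicate 1. Without replicate 2, 7 of the 49 genes passed, against 3.31% of all genes: FZD10, WIF1, and DKK1 were added as higher, and WNT8B as lower, beside the 3 named. Without replicate 1, 6 passed, against 1.68% of all genes, among them DKK1, WIF1, WNT10A, and WNT7A as higher.

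The leading gene of each role in TPM was the same on both days for ligands, frizzled receptors, antagonists, and targets. WNT6 was still the leading ligand at day 32, at 223 ± 160 TPM, followed by WNT10A at 89.2 ± 58.3 TPM, WNT5A at 64.5 ± 19.5 TPM, and WNT3 at 58.8 ± 36.8 TPM (SD, n = 9). The share of WNT6 in the ligand total varied far more than at day 22, from 6.05% to 49.9%, and its level was 4.37 CPM in replicate 1 on LN523 but at least 24.0 CPM in the other libraries. FZD2 remained the highest frizzled receptor at 240 ± 37.1 TPM, SFRP2 the highest antagonist at 4193 ± 2807 TPM, and LEF1 led the targets at 30.7 ± 20.1 TPM, within the spread of AXIN2 at 22.8 ± 11.7 TPM. The SFRP2 libraries ran from 577 to 4330 CPM.

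Whether the laminin matrix altered WNT pathway genes was tested on each day, and few differences were found. All 49 genes were tested at days 22 and 32, and 48 at day 2, where WNT1 had too few reads. At day 2, 3 of the genes differed between LN323 and LN521, against 2.50% of all genes tested. SFRP2 was 394, 129, and 413 CPM on LN323 in replicates 1, 2, and 3, compared with 145, 143, and 128 CPM on LN521, a log2 fold change of 1.12 ± 0.19 (adjusted p = 1.2e-06). The difference lay in replicates 1 and 3, since replicate 2 on LN323 was at the LN521 level, and without replicate 1 or 3 on LN323 it did not pass (log2 fold changes 0.78 and 0.61). SFRP2 was also higher on LN323 than on LN523, where it was 90.0, 290, and 87.9 CPM (log2 fold change of LN523 over LN323 -1.11 ± 0.20, adjusted p = 4.1e-05). SFRP2 was the 1 gene of the 49 that passed there, against 0.233% of all genes. These groups overlapped, because replicate 2 was the high library on LN523 and the low one on LN323, and the call was lost without replicate 1 or 3 of either matrix.

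FZD7 at day 2 was 482, 465, and 636 CPM on LN323 and 231, 325, and 402 CPM on LN521, so the groups did not overlap (log2 fold change 0.65 ± 0.17, adjusted p = 0.014). The FZD7 call was lost without replicate 1 or 3 on LN323 and without replicate 1 or 2 on LN521, with log2 fold changes of 0.58 to 0.67. FRZB, a frizzled-related protein also called SFRP3, was lower on LN323, at 6.07, 7.55, and 2.37 CPM, than on LN521, at 5.62, 16.8, and 10.0 CPM (log2 fold change -1.17 ± 0.30, adjusted p = 0.0094). The FRZB groups overlapped, and without replicate 2 on LN521 the log2 fold change was -0.55 and did not pass (adjusted p = 0.89). Between LN523 and LN521 0 of the genes passed at day 2, with 6 at an unadjusted p-value under 0.05 (8.07% of all genes), against 0.624% of all genes past the threshold, and DESeq2 also gave 0. When replicate 2 on LN323 was left out, 9 of the genes differed between LN323 and LN521, against 9.00% of all genes. FZD4, FZD5, FZD6, FZD8, and WNT4, all lower on LN323, and WIF1, higher there, were added to the 3. Without replicate 1 or 3 on LN323 the count was 0, against 0.324% and 0.643% of all genes.

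**Figure D3:**
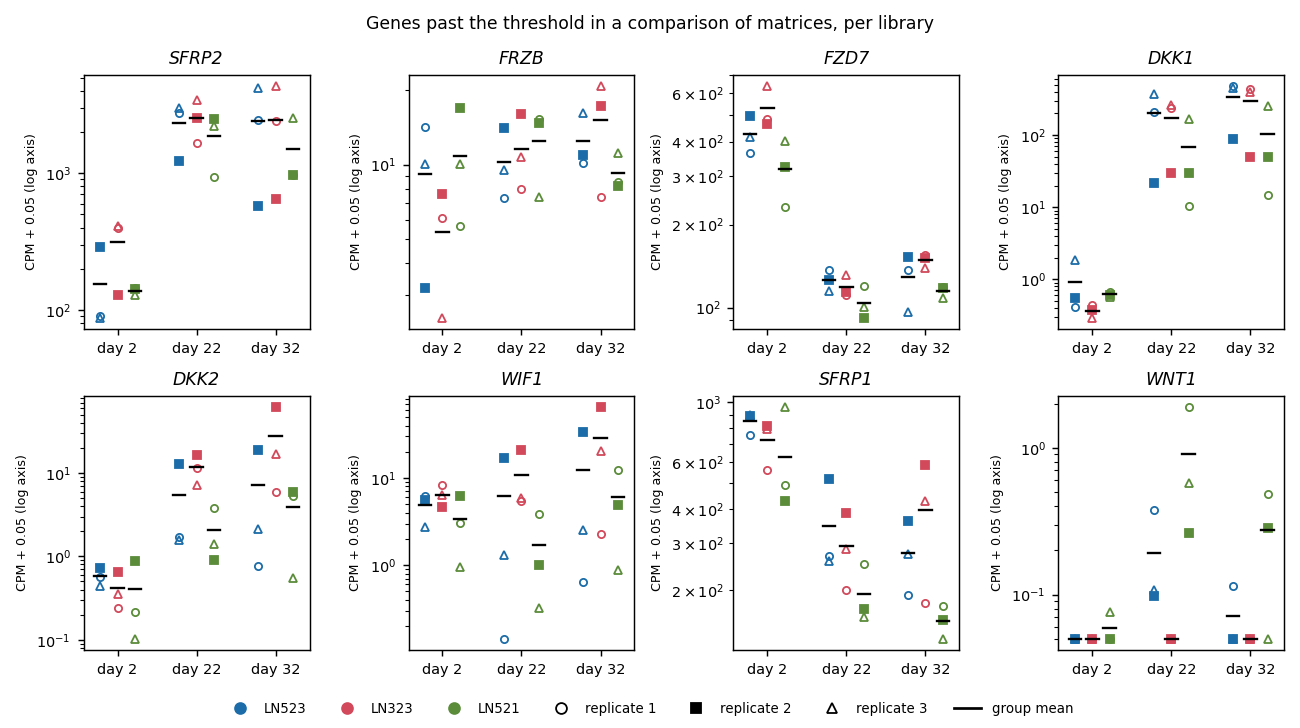
CPM + 0.05 on a log axis, by day, of the 8 genes that passed the threshold in a comparison of matrices, with 1 symbol per replicate, coloured by matrix, and a bar at the group mean. DKK1 at day 22 has at least 1 low library on every matrix, and WNT1 is at 0 in every LN323 library.

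At day 22 differences passed between LN521 and the other matrices, in 4 antagonists and in the ligand WNT1. DKK1 was 212, 22.0, and 374 CPM on LN523, 239, 30.01, and 258 CPM on LN323, and 10.4, 29.5, and 166 CPM on LN521. It was higher on LN523 than on LN521 (log2 fold change 1.22 ± 0.30, adjusted p = 0.020) and on LN323 than on LN521 (1.23 ± 0.30, adjusted p = 0.018). The 3 groups overlapped, and without replicate 1 on LN521 the log2 fold changes were 0.35 and 0.33 and neither passed (adjusted p = 0.76 and 0.74). SFRP1, at 268, 519, and 257 CPM on LN523, was above LN521, at 250, 171, and 159 CPM, with no overlap (0.76 ± 0.18, adjusted p = 0.017). The SFRP1 call was lost without replicate 2 or 3 on LN521 (log2 fold changes 0.43 and 0.69), without replicate 2 or 3 on LN523 (0.52 and 0.86), and without any LN323 library. These 2 genes were those that passed between LN523 and LN521, against 0.572% of all genes.

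Between LN323 and LN521 at day 22, 4 of the genes passed, against 0.616% of all genes. DKK2, a Dickkopf protein of the mesenchyme around the eye, was 11.5, 16.6, and 7.12 CPM on LN323 and 3.81, 0.853, and 1.37 CPM on LN521, with no overlap (log2 fold change 2.36 ± 0.42, adjusted p = 0.00013). WIF1 was 5.33, 21.0, and 5.91 CPM on LN323 and 3.77, 0.947, and 0.275 CPM on LN521, again with no overlap (2.39 ± 0.58, adjusted p = 0.017). Without replicate 1, 2, or 3 on LN521 the log2 fold change of WIF1 was 5.16, 1.25, or 1.5, and the call was lost without replicate 2 or 3 and without any LN323 library. Summed CPM of the 6 mesenchyme markers was also higher on LN323, 1494 to 2692, than on LN521, 598 to 1171, and its part in these results was not tested. WNT1 was at 0 in all 3 LN323 libraries and had 81, 9, and 19 reads on LN521 (adjusted p = 0.00099). Its pooled CPM on LN521 was 34.8-fold that of 3 reads over the LN323 group, taken as the limit that a count of 0 allows. That limit covers counting error only, not the spread between libraries, and it is too low if both reads of each pair were counted. Without replicate 1 on LN521 this ratio was 13.8-fold, on 28 reads. WNT1 was highest, at 1.84 CPM, in replicate 1 on LN521, the library in which summed CPM of 5 neuron markers was 375, compared with 27.2 to 39.6 in the other LN521 libraries. Without it WNT1 did not pass (adjusted p = 0.098). DKK1 was the other gene.

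Between LN523 and LN323 at day 22, 0 of the genes passed, with 7 at an unadjusted p-value under 0.05 (1.33% of all genes), against 0.0130% of all genes past the threshold, and DESeq2 also gave 0. The libraries of replicate number 2 bore on this count. Without replicate 2 on LN523, 11 of the genes passed, against 0.588% of all genes: 10 were lower on LN523, among them SP5, WIF1, WNT2, DKK2, and RSPO2, and FZD5 was higher. Without replicate 1 on LN521, 11 genes passed between LN323 and LN521, against 1.66% of all genes, and 7 between LN523 and LN521, against 1.11%. DKK2, WIF1, SFRP1, FZD10, and WNT10A were higher than on LN521, and WNT8B was lower, in both of these. Without replicate 2 on LN521 the counts were 7 and 9, against 0.981% and 1.34% of all genes, with DKK1, DKK3, and SFRP2 higher than on LN521 and AXIN2 and RSPO1 lower in both. Without replicate 2 on LN523 they were 6 and 9, against 1.02% and 1.11%. Without any 1 of the 3 LN323 libraries both were 0. Leaving out LN323 replicates 1, 2, and 3 in turn, 0.0340%, 0.0790%, and 0.0812% of all genes then differed between LN323 and LN521, and 0.167%, 0.0737%, and 0.0105% between LN523 and LN521.

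At day 32 no gene of the 49 passed any comparison of matrices. LN523 and LN323 differed in 0% of all genes, LN523 and LN521 in 0.0609%, and LN323 and LN521 in 0.117%. In the same order 11, 12, and 10 of the 49 had an unadjusted p-value under 0.05, against 1.90%, 5.17%, and 4.47% of all genes, and DESeq2 called 1, 1, and 2. SFRP1 came closest between LN323 and LN521, at 179, 583, and 428 CPM against 174, 154, and 132 CPM (log2 fold change 1.20 ± 0.25, adjusted p = 0.051). DKK2 was 5.87, 61.7, and 16.9 CPM on LN323, 0.725, 18.6, and 2.10 CPM on LN523, and 5.20, 5.81, and 0.503 CPM on LN521. DKK2 was lower on LN523 than on LN323 in 3 of 3 pairs of libraries with the same number (log2 fold change -2.47 ± 0.60, adjusted p = 0.62), and in the fit on the 6 libraries of LN523 and LN323 it passed (-2.52, adjusted p = 1.7e-37). DKK1 was 479, 89.2, and 451 CPM on LN523, 442, 49.9, and 400 CPM on LN323, and 14.9, 49.4, and 251 CPM on LN521.

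These day 32 counts depended on which libraries were in the fit. When replicate 1 on LN521 was left out, 18 genes passed between LN523 and LN323, against 2.17% of all genes, 12 between LN523 and LN521, against 4.95%, and 19 between LN323 and LN521, against 5.57%. That library had summed neuron markers of 490 CPM, compared with 106 and 109 CPM in the other day 32 libraries on LN521. With the 6 libraries of LN523 and LN323 alone, 20 genes passed between them, against 2.82% of all genes. Of these 20, 17 were lower on LN523, such as SP5, DKK2, WIF1, WNT2, RSPO3, and WNT6, and DKK1, DKK3, and FZD5 were higher. Without replicate 1 on LN323, 5 genes passed between LN523 and LN323, against 0.180% of all genes, and 4 and 5 passed when these were set against LN521, against 0.601% and 0.483%. Without replicate 2 on LN521, 3 passed between LN523 and LN521, against 0.185%. Similarly, the test of a day 2 to day 22 change that differs between matrices gave 10 of the 49 genes without replicate 2, against 2.03% of all genes, namely AXIN2, DKK1, DKK2, FZD10, SFRP2, WNT10A, WNT2B, WNT3, WNT5A, and WNT5B.

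Within LN523 and LN323, the replicate 2 libraries stood apart from replicates 1 and 3 at days 22 and 32 in many of these genes. Among the 46 genes whose mean reached 1 CPM in some group, 17 were highest in replicate 2 in all 4 of these groups, against 7.83% of 18409 genes at that level, and 3 were lowest, against 5.54%. The pattern was noticed in the data and is given as a description, with no test. The 17 included 8 ligands (WNT2, WNT2B, WNT3, WNT4, WNT6, WNT7A, WNT7B, and WNT10A), RSPO3, 4 antagonists (SFRP1, SFRP4, DKK2, and WIF1), and 4 targets (AXIN2, LEF1, NKD1, and SP5). None of the frizzled receptors or co-receptors was among them. The 3 that were lowest were DKK1, DKK3, and WNT8B.

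WNT6 was 28.0, 196, and 44.8 CPM in replicates 1, 2, and 3 on LN523 at day 22, and 4.37, 196.5, and 33.7 CPM at day 32. WNT10A was 20.6, 126, and 31.6 CPM and then 6.91, 137, and 30.2 CPM in the same libraries. The replicate 2 libraries of both genes were thus several-fold above their companions on each day. WIF1 showed the widest gap, at 0.0926, 16.9, and 1.26 CPM on LN523 at day 22 and 0.597, 33.7, and 2.49 CPM at day 32. LEF1 was 14.7, 64.6, and 28.6 CPM on LN523 and 23.9, 96.8, and 51.1 CPM on LN323 at day 32, and NKD1 was 13.9, 74.7, and 20.0 CPM and 18.7, 106, and 64.7 CPM. DKK1 went the other way in these groups, and SFRP2 did so at day 32, at 2441, 577, and 4219 CPM on LN523 and 2420, 648, and 4330 CPM on LN323.

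Summed CPM of the 6 mesenchyme markers moved with these libraries. At day 32 it was 920, 7049, and 1361 on LN523 in replicates 1, 2, and 3, and 1661, 11250, and 4263 on LN323, but 2143, 1299, and 1130 on LN521, where replicate 2 was not high. At day 22 it was 916, 3825, and 1201 on LN523 and 1494, 2692, and 1922 on LN323. Summed CPM of 6 optic vesicle markers was lowest in replicate 2 in the same groups, at 922 compared with 1891 and 1898 on LN523 at day 22 and 935 compared with 1733 and 1888 on LN323 at day 32. Summed CPM of 4 neural crest markers was highest there, at 143 compared with 32.4 and 49.4 on LN523 at day 22, but it was 196 to 251 at day 2. Summed CPM of 6 surface ectoderm and keratinocyte markers at day 32 was highest in replicate 2 on every matrix. In replicates 1, 2, and 3 it was 133.5, 588, and 195 on LN523, 216, 604, and 233 on LN323, and 447, 733, and 320 on LN521. At day 22 it was 113, 189, and 138 on LN523 and 149, 147.5, and 140 on LN323. Most of the day 32 sum came from KRT17, PERP, and TP63, with medians of 185, 95.8, and 26.2 CPM. KRT5, KRT14, and KRT6A had medians of only 1.29, 0.3075, and 0.559 CPM. PERP was already at a median of 61.8 CPM at day 2. The part of these cell types in the values of the WNT genes was not tested. Replicate number equals sequencing lane in the titles, and replicate 2 on LN521 was run in the same lane. On LN521 the replicate 2 library was the highest of 3 in 7 of the 46 genes at day 22 and 10 at day 32, compared with 27 and 24 on LN523. The share over all genes was not computed for single groups, so these counts may not be particular to the WNT genes.

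**Figure D4:**
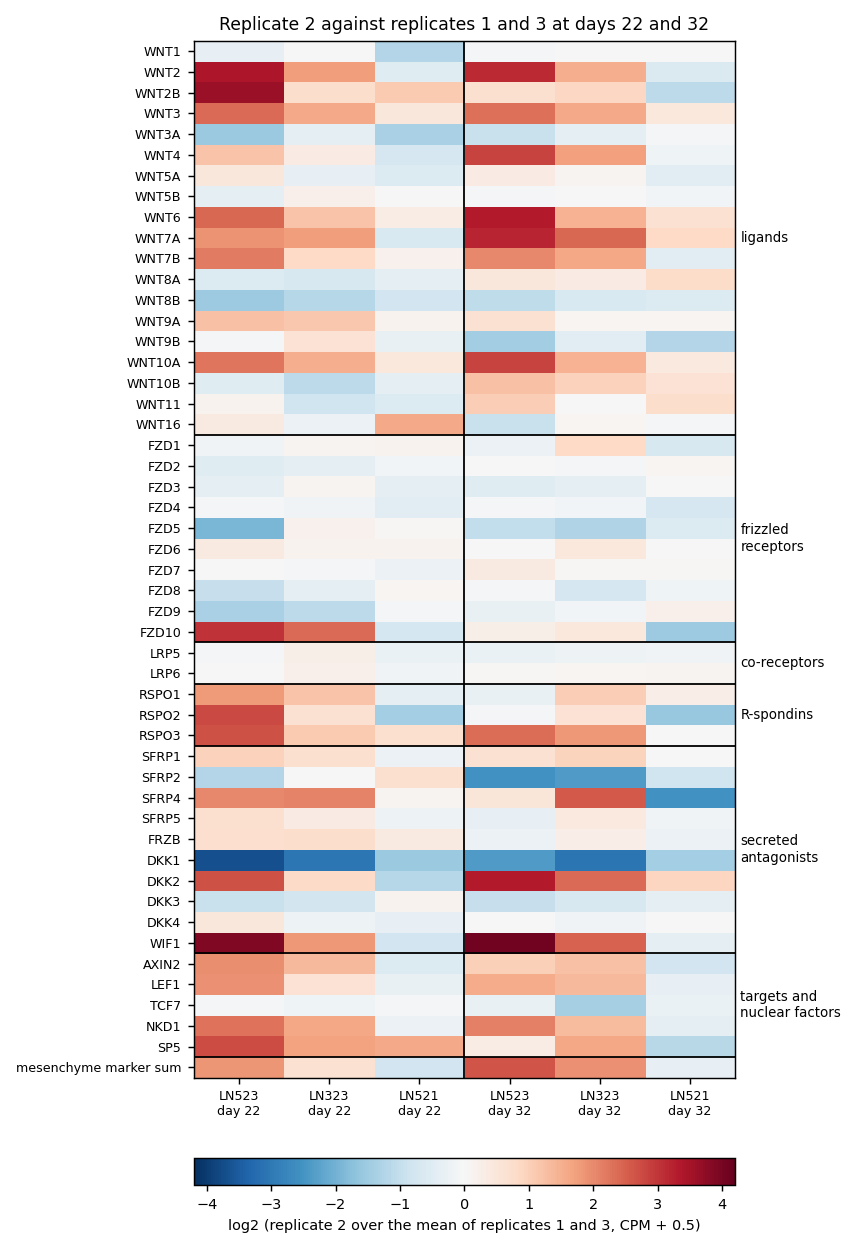
Log2 ratio of replicate 2 over the mean of replicates 1 and 3, with 0.5 CPM added to each, for every gene and for the summed mesenchyme markers (bottom row), in the day 22 and day 32 groups. On LN523 and LN323, WIF1, DKK2, WNT2, and WNT6 are red and DKK1 is blue, while the LN521 columns are paler.

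The other genes of the pathway, a list of 61 measured genes that encode secretion factors, receptor partners, the destruction complex, nuclear factors, and planar polarity proteins, were tested in the same fits. From day 2 to day 22, 32 rose and 16 fell, against 18.2% and 16.9% of all genes, with a median log2 fold change of 0.31. These shares apply to each sublist as well, where some counts of falling genes were not far from them. Of 17 receptor partners 13 rose and 3 fell, and of 17 genes of the cytoplasmic relay and destruction complex 8 rose and 4 fell, with medians of 0.94 and 0.14. Of 11 nuclear factors 5 rose and 5 fell, of 9 planar polarity genes 3 rose and 2 fell, and of 7 secretion factors and cofactors 3 rose and 2 fell. WLS, the carrier that takes WNT proteins to the cell surface, went from a median of 1.16 to 139 CPM (log2 fold change 6.75 ± 0.23, adjusted p = 8.7e-31). LGR5, an R-spondin receptor, went from 0.193 to 12.3 CPM (5.94 ± 0.33), APCDD1, a membrane inhibitor of WNT signalling, from 3.05 to 147 CPM (5.77 ± 0.24), and SOSTDC1, a secreted WNT and BMP antagonist, from 0.573 to 31.3 CPM (5.37 ± 0.26). PORCN, the acyltransferase that WNT proteins need, did not pass (log2 fold change -0.15, adjusted p = 0.62). PYGO1, a beta-catenin co-activator, rose by a log2 fold change of 5.25 ± 0.18, DACT3 and DACT1, which modulate Dishevelled, by 3.16 ± 0.24 and 2.06 ± 0.27, APC2 by 1.92 ± 0.25, TLE4, a co-repressor of TCF factors, by 1.85 ± 0.12, and CELSR1 by 0.75 ± 0.14.

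Among the genes of that list that fell, TRABD2A, a protease that inactivates WNT proteins, went from a median of 23.6 to 3.43 CPM (log2 fold change -2.84 ± 0.24). TCF7L1, a repressive TCF factor of pluripotent cells, fell by 1.68 ± 0.16 on the log2 scale, CELSR3 by 1.70 ± 0.15, and PRICKLE1 by 1.14 ± 0.17, the last 2 being planar polarity genes. From day 22 to day 32, 2 of the 61 rose and 1 fell, beside the 1.03% and 0.305% of all genes given above. NDP, which encodes the FZD4 ligand norrin, rose from a median of 1.24 to 6.01 CPM (2.14 ± 0.39, adjusted p = 0.00042), SOSTDC1 from 31.3 to 45.9 CPM (0.83 ± 0.21, adjusted p = 0.027), and TRABD2A fell to 1.22 CPM (-1.31 ± 0.24, adjusted p = 0.00037). FZD4 itself had medians of 17.7 and 15.7 CPM on these days.

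Reads of overlapping genes limit some of these values. The library kit marks strand, but whether the counting used it is not given in the sources used here. USP47 covers 47.5% of the exon bases of DKK3 on the other strand, ST7L covers 21.5% of those of WNT2B, PRSS23 covers 18.9% of those of FZD4, and an antisense gene covers 15.7% of those of RSPO3 and another 10.2% of those of DKK1. A gene on the same strand shares 25.3% of the exon bases of AXIN2. The values of these genes may therefore include or lack reads of their neighbours.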

How the data were processed

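RNA of 27 H1 libraries was sequenced by the authors as 150 bp read pairs after a stranded total RNA preparation, trimmed, aligned to hg38 with STAR 2.5.2b, and counted over genes with featureCounts 1.5.1. The deposited counts are whole numbers per gene, not normalized, and hold no ribosomal RNA or mitochondrial genes. The authors also deposited TPM, in which reads per length sum to the same total in each library. Both tables hold 44852 genes, and depth was 25620624 to 47340990 counts per library, so counting error is small beside replicate spread except for genes with few reads.

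The 49 members and the other lists were chosen with earlier results of these data known. Libraries were grouped by matrix and day from the labels. Counts were tested with edgeR 4.0.16 (R 4.3.3): genes with more than 1 read in the fitted libraries, TMM scaling, quasi-likelihood F test in its legacy form, and replicate number as a block. Day comparisons used all 27 libraries and averaged the matrices, and each matrix comparison used the 9 libraries of its day. P-values were adjusted over all genes tested (Benjamini-Hochberg) with a threshold of 0.05. SEs were derived from the F statistic. CPM are counts divided by the TMM-scaled library size and multiplied by 1000000.

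The titles give the replicate number as the sequencing lane, so same-numbered libraries share a lane and the block follows the study's own model. Over 16366 genes, deviations of same-numbered LN523 and LN323 libraries correlated at 0.38 to 0.76 on days 22 and 32, those of LN521 and other libraries of number 1 at -0.27 to -0.17, and day 2 pairs at -0.46 to 0.27. Tested on simulated data, the fit recovered nearly all large changes and fewer small ones, fewest within a day, and it called more unchanged genes than the threshold aims at, so the adjusted p-values understate the share of false calls.

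The rule for naming members in full took, within each role, up to 4 with the largest change past the threshold in a day comparison, provided that a group mean reached 1 CPM and the 3 matrices had the same sign, and up to 12 that passed between matrices. Other pathway genes were named if past the threshold and among the 3 largest changes of their list. Members called under other settings, and the replicate 2 pattern, were singled out after their values were seen. Symbols matched 43052 of the gene identifiers, and KREMEN1 and SOX10 were not analysed here. Alternatives were DESeq2 1.42.0, RLE scaling, a filterByExpr filter, no block, fits on other sets of libraries, each library left out in turn, and, chosen after seeing the data, edgeR's bias-adjusted test and leaving out replicate 1 on LN521 at every day. Coordinates are from GENCODE 44 and promoter windows from RefSeq, and the annotation used for counting was Ensembl 79.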

Additional observations from a re-analysis of the deposited data

How the results depend on the processing

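Of the 40 calls between days 2 and 22, 32 passed in every alternative run. WNT8A, FZD9, LRP6, RSPO2, SFRP4, AXIN2, TCF7, and SP5 failed in at least 1 of them, and no call changed direction. None of the 3 calls between days 22 and 32 and none of the 10 calls between matrices passed in every alternative. The matrix calls all failed with the filterByExpr filter, the bias-adjusted test, and the fit on all 27 libraries, and DESeq2 kept FZD7 at day 2 (adjusted p = 0.039) and WNT1 at day 22 (adjusted p = 0.0016). The cause was not tested. Low counts limit WNT1, WNT8A, DKK4, and SP5. A group left with 2 libraries in these fits borrows its spread from the other groups.

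Between days 22 and 32, 3 genes passed, with 1 under the filterByExpr filter, 5 under the bias-adjusted test, 5 on LN521 alone, and 6 without LN521 replicate 1. All 3 main calls failed on LN521 alone, so the 5 there were other genes. LN523 alone and LN323 alone each kept 1 of the 3. For LN523 against LN323 at day 2 (1 gene), 0 passed in the 27-library fit, with the filter, the bias-adjusted test, the 6-library fit, or DESeq2. For LN323 against LN521 at day 2 (3 genes), 0 passed in the 27-library fit, with the filter, or with the bias-adjusted test, and 1 with DESeq2. For LN523 against LN323 at day 22 (0 genes), 4 passed in the 6-library fit. For LN523 against LN521 at day 22 (2 genes), 1 passed with RLE scaling and 0 in the 27-library fit, with the filter, the bias-adjusted test, the 6-library fit, or DESeq2. For LN323 against LN521 at day 22 (4 genes), 2 passed with RLE scaling, 1 with DESeq2, and 0 in the 27-library fit, with the filter, or with the bias-adjusted test. At day 32 (0 genes in each), LN523 against LN323 gave 20 in the 6-library fit, against 2.82% of all genes, and 1 with DESeq2. LN523 against LN521 gave 1 in the 6-library fit and 1 with DESeq2. LN323 against LN521 gave 1 in the 27-library fit and 2 with DESeq2. The settings also changed the share of all genes that passed. The other counts here are given without that share, so their changes may not be particular to the WNT genes.

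Without the replicate block, 41 genes passed between days 2 and 22 and 2 between days 22 and 32, and 0 passed either test of a difference in day change. In the matrix comparisons the fit without the replicate block gave 2 genes for LN523 against LN323 and kept the 3 for LN323 against LN521 at day 2, and gave 0 in each at day 22, so the day 22 calls rested on the block.

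With 1 replicate left out, counts ranged from 36 to 41 between days 2 and 22, from 2 to 7 between days 22 and 32, and for a day change that differs between matrices from 0 to 10 at day 22 and from 0 to 1 at day 32. In the order LN523 against LN323, LN523 against LN521, and LN323 against LN521, the ranges were 0 to 5, 0 to 1, and 0 to 9 at day 2, 0 to 11, 0 to 9, and 0 to 11 at day 22, and 0 to 18, 0 to 12, and 0 to 19 at day 32. The highest day 32 counts came without replicate 1 on LN521. In that fit 2.17%, 4.95%, and 5.57% of all genes passed, compared with 0%, 0.0609%, and 0.117% in the main fit.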
